A study of Homo sapiens with 6 samples.

Results

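The genes described here are autosomal long noncoding RNA genes of IMR90 cells, a line of primary human fetal lung fibroblasts, with and without depletion of the histone variant macroH2A1. A gene was included when its Ensembl identifier had the type lincRNA (long intergenic) or antisense in GENCODE 29, lay on chromosomes 1 to 22 and had a raw count sum of at least 60 over the 6 libraries. H19 and MEG3, which are imprinted, were left out by rule. This gave 172 genes, 75 lincRNA and 97 antisense, of 57659 genes in the deposited counts, where 9324 autosomal genes have these types and 3306 of them had at least 1 count. The genes were chosen by this summed count over both groups, so their abundance is a description with no test. The sums ran from 60 to 209849 with a median of 137.5, and 114 of the 172 lay under 200. TRAM2-AS1 with 60 counts was just inside the limit and MIR381HG with 59 was just outside it.

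Cells of the control group carried a short hairpin RNA against luciferase, a firefly gene absent from the human genome, and cells of the knockdown group one against macroH2A1. Each group has 3 libraries, described as biological replicates of a single line, so the p-values measure the spread between these cultures and not between donors. RNA was total RNA depleted of ribosomal RNA, and the libraries keep strand. The hairpin sequences, the vector and the time after its introduction were not stated in the sources used here.

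Long noncoding RNAs are transcripts without a long reading frame. Some, such as NEAT1, build nuclear bodies; some carry microRNAs or small nucleolar RNAs in their exons or introns; and others start beside a protein-coding gene on the opposite strand or overlap it. MacroH2A1 carries a large globular macrodomain and is best known for its enrichment on the inactive X chromosome and in other repressed chromatin, although it also occurs at active genes.

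The libraries held 3741087 to 6421605 gene counts, so that 3 counts equal 0.467 to 0.802 counts per 1000000 (CPM) and genes near the lower end of the range are measured coarsely. The targeted gene, MACROH2A1, had 582, 385 and 321 counts in control and 197, 201 and 149 in knockdown libraries (88.3 ± 3.62 and 40.9 ± 2.51 CPM, SD, n = 3, edgeR adjusted p = 0.000917). Of 13 fibroblast markers none was at 0, and their summed level was 10704 to 12298 CPM in control and 15184 to 16555 CPM in knockdown libraries. Of the 12 tested, 6 rose and 0 fell, beside 3.9% higher and 4.31% lower over all genes tested. Those that rose were COL1A2, COL3A1, DCN, LUM, PDGFRA and TCF21. COL1A1, PDGFRB, THY1, VIM, FN1 and POSTN did not pass. Epithelial markers summed to 0.457 to 0.870 CPM over all 6 libraries, with SFTPB, SFTPA1 and SCGB1A1 at 0, and endothelial markers to 0.870 to 3.21 CPM, with PECAM1 at 0. Blood markers summed to 14.2 to 18.8 CPM with CD3E and HBA1 at 0. The highest of them were CD4, with 269 counts over the 6 libraries, and CD68, with 150. Neural and muscle markers summed to 3.04 to 10.2 CPM with RBFOX3, SOX10 and MYOD1 at 0. The highest of these were DES, with 126 counts, and TUBB3, with 40. In bulk RNA, fewer cells of a type and less RNA per cell cannot be told apart.

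The results turn first on 2 microRNA host genes, whose mature products are shown because they are what these RNAs are best known for. The sequences are from RefSeq (GRCh38.p14), and capitals mark the seed, bases 2 to 8, which pairs with targets. CARMN contains MIR143 and MIR145, and MIR22HG carries MIR22 in an exon. The seeds differ among all 3.
hsa-miR-143-3p: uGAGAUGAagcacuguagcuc
hsa-miR-145-5p: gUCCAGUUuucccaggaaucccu
hsa-miR-22-3p: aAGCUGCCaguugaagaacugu

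RefSeq promoter windows, 250 bases before to 50 after the start of the gene, were matched for 113 of the 172 genes and for 4 of the 9 that passed the test described next. These 4 are shown because they were the ones with a window. All 9 genes rose in the knockdown, so direction does not set the 4 apart. The windows are CARMN at chr5:149406595-149406894 on the plus strand, ADAMTS9-AS2 at chr3:64684620-64684919 on the plus strand, MIR22HG at chr17:1716161-1716460 on the minus strand and RNF217-AS1 at chr6:124962978-124963277 on the minus strand, all GRCh38.p14. Capitals mark matches to 3 promoter motifs, the TATA box (TATAAA), the CCAAT box (CCAAT) and the GC box (GGGCGG), which do not overlap each other here; a match on the other strand appears as the reverse complement.
CARMN: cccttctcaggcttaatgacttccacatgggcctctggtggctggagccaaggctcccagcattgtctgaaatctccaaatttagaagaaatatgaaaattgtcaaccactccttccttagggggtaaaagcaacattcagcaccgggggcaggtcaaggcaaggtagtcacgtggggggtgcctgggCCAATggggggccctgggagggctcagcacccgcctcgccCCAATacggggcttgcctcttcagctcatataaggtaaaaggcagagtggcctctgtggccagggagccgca
ADAMTS9-AS2: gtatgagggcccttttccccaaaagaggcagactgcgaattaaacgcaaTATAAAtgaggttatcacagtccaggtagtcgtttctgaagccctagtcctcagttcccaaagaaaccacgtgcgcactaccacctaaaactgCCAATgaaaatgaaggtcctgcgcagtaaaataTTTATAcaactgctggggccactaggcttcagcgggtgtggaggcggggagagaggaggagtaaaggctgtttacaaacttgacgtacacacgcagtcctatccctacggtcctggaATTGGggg
MIR22HG: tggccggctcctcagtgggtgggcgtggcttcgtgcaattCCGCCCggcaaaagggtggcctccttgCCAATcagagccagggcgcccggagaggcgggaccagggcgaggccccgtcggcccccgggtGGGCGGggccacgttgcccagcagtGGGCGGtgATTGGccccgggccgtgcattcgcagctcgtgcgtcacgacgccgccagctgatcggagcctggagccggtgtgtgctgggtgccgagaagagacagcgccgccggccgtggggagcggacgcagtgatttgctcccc
RNF217-AS1: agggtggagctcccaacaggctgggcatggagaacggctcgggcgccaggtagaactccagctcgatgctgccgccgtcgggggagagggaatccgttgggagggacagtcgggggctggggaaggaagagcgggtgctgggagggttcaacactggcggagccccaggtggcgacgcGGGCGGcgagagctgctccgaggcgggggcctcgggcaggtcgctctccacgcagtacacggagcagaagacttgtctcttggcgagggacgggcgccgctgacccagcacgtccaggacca
The 4 windows differ in composition. MIR22HG and RNF217-AS1 have GC contents of 72.3% and 69.3% with 32 and 27 CpG dinucleotides, whereas CARMN has 56.7% with 6 and ADAMTS9-AS2 49.7% with 11. CCAAT occurs 2 times in each of CARMN, ADAMTS9-AS2 and MIR22HG, and 34.6% of 35116 promoters hold it at least 1 time. This share and those that follow count promoters with any match. The number of matches in each promoter was not compared. TATAAA occurs 2 times in ADAMTS9-AS2 only among the 4 (11.5% of all promoters). GGGCGG occurs 3 times in MIR22HG and 1 time in RNF217-AS1 (45.0% of all promoters). TGANTCA, the AP-1 motif, held by 7.71% of all promoters, and the CArG box of serum response factor, held by 1.29%, have no match on either strand of the 4 windows.

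Which of these genes differ when macroH2A1 is depleted was asked with edgeR's quasi-likelihood test over all 13445 genes that passed a filter on low counts, with Benjamini-Hochberg adjustment over all of them. Of the 172 genes, 161 passed the filter; 9 were higher in the knockdown at an adjusted p under 0.05, 0 were lower and 152 did not pass. Over all genes tested, 3.9% were higher and 4.31% lower, so 8.21% were called in either direction, against 5.59% of the long noncoding genes. Of 10437 protein-coding genes, 9.64% were called. The share of long noncoding genes called is thus below the background and is not a result about them. At an unadjusted edgeR p under 0.05 there were 38 of the 161, 33 higher and 5 lower. Over all genes tested 24.6% had such a p, 1616 higher and 1685 lower. DESeq2 called 12 higher and 1 lower, beside 9.5% of all genes, and limma-voom 10 higher and 0 lower, beside 9.07%. Without the filter edgeR called 18 higher and 4 lower of the 172, beside 3.93% of 32553 genes. The CPM values of the groups did not overlap for 58 of the 161 (47 higher, 11 lower), beside 30.4% of all genes tested (1955 higher, 2136 lower). The 11 genes that failed the filter include SLC2A1-AS1, KIF9-AS1, DLGAP1-AS2 and PURPL.

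**Figure D1:**
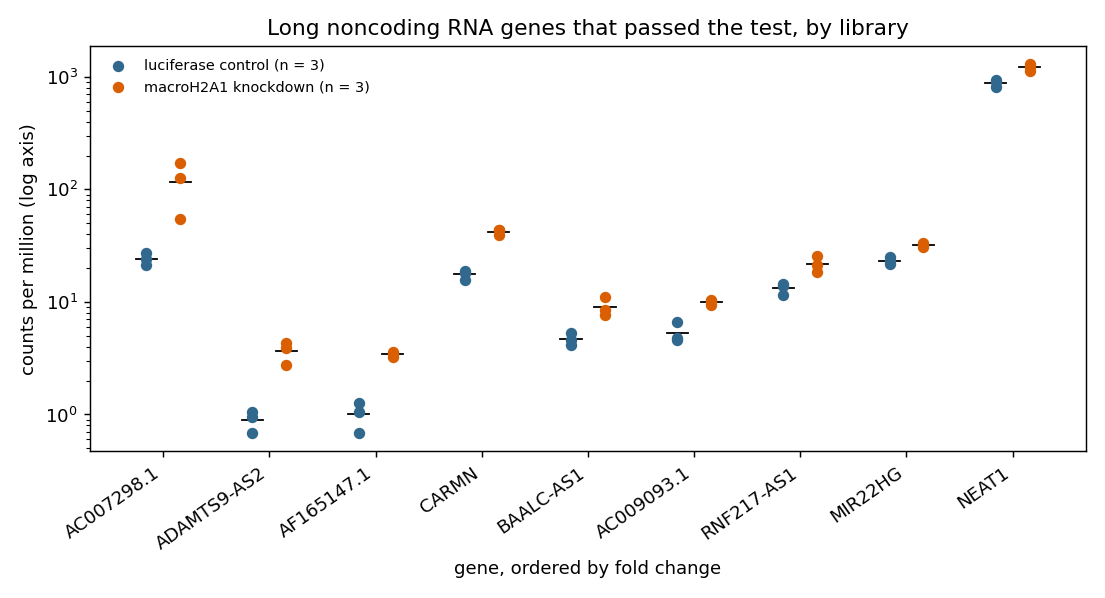
Counts per 1000000 (CPM) on a log axis for the 9 long noncoding RNA genes that passed the test, ordered by fold change; each point is 1 library, blue for control and orange for knockdown, and each bar is the group mean of 3. The groups do not overlap for any of the 9, and AC007298.1 has the widest spread among its knockdown libraries, 54.8 to 171 CPM.

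Among the microRNA hosts, CARMN rose and was the only gene of the 172 whose call held in every alternative fit. CARMN (chromosome 5, lincRNA), known from cardiac and smooth muscle differentiation, had 120, 79 and 59 counts in control and 221, 199 and 148 in knockdown libraries. On the CPM scale each knockdown library (39.6 to 43.7) lay above every control library. The group means were 17.5 ± 1.75 and 42.2 ± 2.23 CPM (SD, n = 3), a 2.40-fold rise (log2 fold change 1.26, SE 0.10, edgeR adjusted p = 0.00132). Over 14 alternative fits its log2 fold change stayed between 1.18 and 1.33 and its adjusted p at or below 0.0153. MIR143 and MIR145, the hairpins it contains, were not analysed here. Of its protein-coding neighbours, CSNK1A1, which encodes casein kinase 1 alpha, had a log2 fold change of -0.01 (edgeR adjusted p = 0.967), and IL17B, an interleukin 17 family member, had 1 count in all.

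MIR22HG (chromosome 17, lincRNA), the host of miR-22, rose by a smaller factor. Its levels were 21.7, 23.1 and 25.1 CPM in control and 33.4, 30.7 and 32.1 CPM in knockdown libraries, without overlap. The means were 23.3 ± 1.73 and 32.1 ± 1.38 CPM (1.38-fold, log2 0.47, SE 0.09, edgeR adjusted p = 0.0245), and with DESeq2 the call was lost (adjusted p = 0.0585). MIR22HG starts head-to-head with WDR81, an endosomal trafficking protein gene, and its RefSeq promoter window shares 188 bases with 1 of the 2 listed for WDR81 and 0 with the other. WDR81 had a log2 fold change of -0.02 (edgeR adjusted p = 0.981). The next gene on the MIR22HG strand is TLCD2, which encodes a membrane protein with a TLC domain. TLCD2 had 6, 4 and 5 counts in control and 12, 21 and 21 in knockdown libraries, and rose 3.87-fold, from 1.06 ± 0.226 to 4.19 ± 1.66 CPM (log2 1.95, SE 0.42, edgeR adjusted p = 0.0369).

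Of the 30 microRNA host names listed, 8 are among the 172 genes, 2 rose, 0 fell, and the median log2 fold change was 0.38, beside 0.01 over all genes tested. The other 6 did not pass the edgeR test. DLEU2, host of miR-15a and miR-16-1, had a log2 fold change of 1.02 (edgeR adjusted p = 0.145), and MIRLET7BHG, host of let-7 microRNAs, one of 0.55 (0.231). DNM3OS, host of miR-199a and miR-214, had 0.30 (0.398) and MIR181A1HG -0.35 (0.429). MIR137HG, the host of miR-137, had 43, 22 and 15 counts in control and 6, 15 and 4 in knockdown libraries, and on the CPM scale the groups did not overlap. Its means of 5.27 ± 1.43 and 1.84 ± 1.23 CPM gave a log2 fold change of -1.51 with an SE of 0.45 that missed the threshold (edgeR adjusted p = 0.0900). It was called lower with DESeq2 (adjusted p = 0.0317), without the filter on low counts in edgeR (0.0434) and in edgeR without knockdown replicate 2 (0.0451).

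Among nuclear and architectural RNAs, NEAT1 rose and MALAT1 did not pass. NEAT1 (chromosome 11), the scaffold of paraspeckles, had 941, 808 and 905 CPM in control and 1216, 1292 and 1135 CPM in knockdown libraries. Every knockdown library lay above every control library. The means were 885 ± 68.8 and 1214 ± 78.5 CPM (1.37-fold, log2 0.46, SE 0.10, edgeR adjusted p = 0.0365), and with libraries scaled by total counts alone the call was lost (adjusted p = 0.0538). FRMD8, a neighbouring gene whose protein binds iRhoms, had a log2 fold change of -0.13 (edgeR adjusted p = 0.667). MALAT1, a nuclear speckle RNA that lies close to NEAT1, had a log2 fold change of -0.02 (edgeR adjusted p = 0.966) and NORAD, which binds Pumilio proteins, one of -0.15 (0.278). CYTOR had -0.56 (0.136). FGD5-AS1 stood just above the threshold with 0.30 (edgeR adjusted p = 0.0544), and it was called higher under upper-quartile scaling (0.0470), a minimum count of 20 (0.0394) and limma-voom (0.0420). Of the 8 names listed for this role, 6 are among the 172 genes, 1 rose, 0 fell and the median log2 fold change was -0.06.

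Per length, as mean CPM per kilobase of union exon (RPKM), MALAT1 was the most abundant of the 172 genes at 849, followed by AC084082.1 at 488, AC008443.5 at 454, AC124068.2 at 250 and LINC00324 at 190. NEAT1 stood at 46.1 RPKM and CARMN at 1.66 RPKM. All 172 together made up 1.52%, 1.20% and 1.22% of gene counts in control and 1.20%, 1.39% and 1.29% in knockdown libraries, with overlap between the groups.

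Among partners of matrix genes, ADAMTS9-AS2 rose together with the protease gene it overlaps. ADAMTS9-AS2 (chromosome 3, antisense) had 6, 3 and 4 counts in control and 14, 18 and 16 in knockdown libraries. These few counts gave 0.897 ± 0.191 and 3.66 ± 0.791 CPM without overlap, a 3.95-fold rise (log2 1.98, SE 0.32, edgeR adjusted p = 0.0147). ADAMTS9, which encodes a secreted metalloprotease that cleaves proteoglycans, lies on the opposite strand and shares no exon sequence with it. ADAMTS9 had 24, 15 and 27 counts in control and 74, 82 and 73 in knockdown libraries, and rose 3.68-fold, from 4.79 ± 2.04 to 17.3 ± 2.50 CPM (log2 1.88, SE 0.29, edgeR adjusted p = 0.0122). The libraries keep strand, but no source used here states the strand setting of the counting, and how reads of overlapping genes on opposite strands were divided is uncertain. The flanking genes PRICKLE2, of planar cell polarity, and MAGI1, a junction scaffold, had log2 fold changes of 0.11 and -0.39 (edgeR adjusted p = 0.538 and 0.0543).

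AF165147.1 (chromosome 21, lincRNA), a gene with no established role, has another gene of the same protease family as its nearest protein-coding neighbour on one side. It had 8, 3 and 4 counts in control and 18, 16 and 12 in knockdown libraries, and rose 3.28-fold, from 1.00 ± 0.294 to 3.42 ± 0.181 CPM without overlap (log2 1.71, SE 0.29, edgeR adjusted p = 0.0168). ADAMTS5, the main aggrecan-cleaving protease, lies on the same strand. ADAMTS5 had 214, 124 and 108 counts in control and 413, 383 and 342 in knockdown libraries, and rose 2.82-fold, from 30.2 ± 3.12 to 85.5 ± 5.33 CPM (log2 1.50, SE 0.10, edgeR adjusted p = 0.000844). N6AMT1, a methyltransferase gene on the other side, had a log2 fold change of -0.25 (edgeR adjusted p = 0.432).

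The matrix, adhesion and contraction list has 25 names, of which 3 are among the 172 genes. ADAMTS9-AS2 rose, 0 fell and the median log2 fold change was 0.42. LOXL1-AS1, antisense to a lysyl oxidase gene, had 0.42 (edgeR adjusted p = 0.276), and ACTA2-AS1, antisense to the smooth muscle actin gene, had a log2 fold change of -0.25.

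BAALC-AS1 moved opposite to both genes it overlaps. BAALC-AS1 (chromosome 8, antisense) had 4.11, 4.57 and 5.29 CPM in control and 7.71, 8.48 and 11.0 CPM in knockdown libraries, and rose 1.95-fold, from 4.66 ± 0.591 to 9.06 ± 1.71 CPM without overlap (log2 0.96, SE 0.22, edgeR adjusted p = 0.0427). This call stood closest to the threshold among the 9 and was lost with DESeq2 (adjusted p = 0.0537) and with edgeR on total counts alone (0.0535). BAALC, a gene named from brain and acute leukaemia, had 84, 54 and 50 counts in control and 35, 26 and 31 in knockdown libraries, and fell from 12.9 ± 0.524 to 6.96 ± 1.33 CPM (log2 -0.90, SE 0.18, edgeR adjusted p = 0.0285). FZD6, a Frizzled receptor of WNT signalling, starts head-to-head with BAALC-AS1 and shares exon sequence with it. FZD6 had 807, 488 and 458 counts in control and 436, 376 and 349 in knockdown libraries, and fell from 120 ± 8.09 to 87.2 ± 5.92 CPM (log2 -0.46, SE 0.09, edgeR adjusted p = 0.0227). BAALC-AS1 had 185 counts over all libraries and FZD6 had 2914. The strand setting of the counting is not stated, so how reads of these overlapping genes were divided is uncertain. Further out, ATP6V1C1, a proton pump subunit, had -0.29 (0.0832) and CTHRC1, a secreted matrix protein, 0.07 (0.761).

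The remaining 3 genes called had no neighbour that passed, and some of their neighbours had too few counts to be tested. AC007298.1 (chromosome 12, antisense) had 21.5, 27.0 and 24.1 CPM in control and 125, 54.8 and 171 CPM in knockdown libraries. The groups did not overlap, but knockdown replicate 2 lay well below the other two, and the means were 24.2 ± 2.73 and 117 ± 58.7 CPM (4.85-fold, log2 2.28, SE 0.39, edgeR adjusted p = 0.0175). It shares exon sequence with LTA4H, the leukotriene A4 hydrolase gene, which had a log2 fold change of 0.02 (edgeR adjusted p = 0.930). ELK3, an ETS factor gene beside it, had 0.03 (0.874), and HAL, histidine ammonia-lyase, had 9 counts in all.

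RNF217-AS1 (chromosome 6, antisense) had 14.4, 13.7 and 11.6 CPM in control and 25.7, 21.3 and 18.5 CPM in knockdown libraries, and rose 1.64-fold, from 13.2 ± 1.44 to 21.8 ± 3.64 CPM without overlap (log2 0.72, SE 0.16, edgeR adjusted p = 0.0396). RNF217, a ubiquitin ligase gene that starts head-to-head with it and shares exon sequence, had a log2 fold change of -0.04 (edgeR adjusted p = 0.835). TPD52L1, of the tumour protein D52 family, had -0.98 with an SE of 0.30 and did not pass (edgeR adjusted p = 0.102), and NKAIN2, a gene for a sodium pump-interacting protein, had 2 counts. AC009093.1 (chromosome 16, lincRNA), with no established role, had 4.59, 4.80 and 6.61 CPM in control and 10.5, 9.35 and 10.2 CPM in knockdown libraries. The groups did not overlap, and the rise was 1.90-fold, from 5.33 ± 1.11 to 10.0 ± 0.586 CPM (log2 0.92, SE 0.20, edgeR adjusted p = 0.0369). Its neighbours NPIPB11, of a near-identical multigene family, and LAT, a T cell adaptor, had 3 and 0 counts, and neither was tested.

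The 9 calls rest on all 6 libraries to different degrees. Without control replicate 1 or control replicate 2 only CARMN was called, and without control replicate 3 there were 3 of the 9. Without knockdown replicate 1 or 2 there were 2 of the 9, and without knockdown replicate 3 there were 3. These knockdown fits each also called 1 gene outside the 9, in order LINC00324 (higher), MIR137HG (lower) and AC007563.2 (higher). Only CARMN was called in each of these 6 fits. Calls over all genes fell as well, to between 427 and 564 of 13838 to 13968 genes tested, from 1104 of 13445 with all libraries. For the other 8 genes the log2 fold change kept its sign in each alternative, and the highest adjusted p in any alternative was 0.0744 for ADAMTS9-AS2, 0.0722 for AF165147.1, 0.0782 for AC007298.1, 0.0872 for MIR22HG, 0.117 for NEAT1, 0.119 for AC009093.1, 0.108 for RNF217-AS1 and 0.140 for BAALC-AS1 (edgeR).

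Of the other roles, none held a gene that passed. The 36 small nucleolar RNA host names include 7 of the 172 genes (0 higher, 0 lower, median log2 fold change 0.14), of which ZFAS1 was the most abundant with 0.15 (edgeR adjusted p = 0.293). Its hosted SNORD12, SNORD12B and SNORD12C had log2 fold changes of 0.12, 0.06 and 0.55 and did not pass either (edgeR adjusted p = 0.650, 0.792 and 0.129). SNHG16, another small nucleolar RNA host whose annotated type keeps it out of the 172, fell from 93.8 ± 6.20 to 64.4 ± 1.97 CPM (log2 -0.54, SE 0.08, edgeR adjusted p = 0.00935), and GAS5, a growth arrest RNA also outside them, had -0.22 (0.167). Of 29 names of transcription factor partners, 4 are among the 172 (0 higher, 0 lower, median 0.24). NR2F1-AS1 was the most abundant of them with a log2 fold change of 0.18 (edgeR adjusted p = 0.351), and TBX5-AS1, beside a lung mesenchyme factor gene, had 0.27 (0.457).

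Among p53 and senescence RNAs, 3 of 11 names are among the 172 and 2 were tested. LINC-PINT, a p53 target, has 2 Ensembl entries. The one among the 172 went from 24.9 ± 0.239 to 18.8 ± 2.58 CPM with a log2 fold change of -0.41 that did not pass (edgeR adjusted p = 0.0789). The other, whose annotated type keeps it out of the 172, had the opposite sign at 0.33 (0.342). TP53TG1, another p53 target, had 0.69 (0.233). PURPL, a p53-regulated RNA, was not tested and had 28, 8 and 13 counts in control and 7, 9 and 7 in knockdown libraries. The imprinted list gave 3 of 15 names (0 higher, 0 lower, median 0.29), with MEG8 at -0.02 (edgeR adjusted p = 0.945). The HOX list gave 1 of 18, HOXB-AS3 at 0.09, and the stress, hypoxia and growth list 1 of 21, PVT1, which lies beside MYC, at -0.03; neither passed.

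Although few genes passed singly, the log2 fold changes of the 161 genes lay mostly above 0. Their median was 0.22, against 0.01 over all genes tested and -0.01 over protein-coding genes, and 114 of the 161 (70.8%) were positive, against 50.8% and 48.1%. Both types showed this: 49 of 72 lincRNA genes were positive with a median of 0.21 and 65 of 89 antisense genes with a median of 0.22. Genes that share exon sequence with a protein-coding gene had a median of 0.19 (89 tested, 3 higher) and those that do not a median of 0.27 (72 tested, 6 higher). Genes head-to-head with a protein-coding gene were positive in 57 of 72 cases (79.2%) with a median of 0.21, and the others in 64.0% with a median of 0.23.

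**Figure D2:**
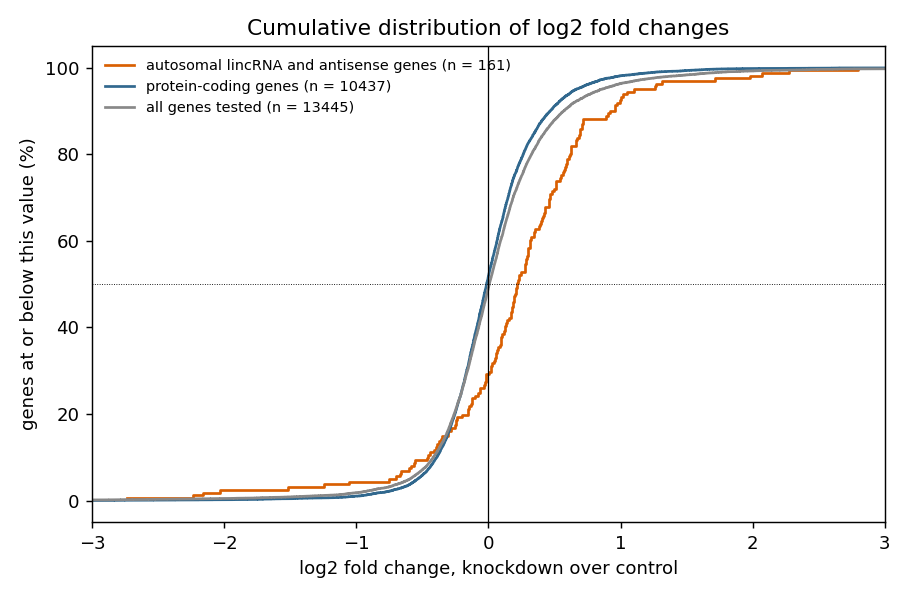
Cumulative share of genes in percent against the log2 fold change, knockdown over control, for the 161 long noncoding genes tested (orange), 10437 protein-coding genes (blue) and all 13445 genes tested (grey). The orange curve crosses the 50% line at 0.22 and lies to the right of the others there, while below about -1 it lies above them.

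Other noncoding types had medians above 0 as well: 0.25 for 242 small nucleolar RNA genes, 0.31 for 315 small nuclear RNA genes, 0.09 for 793 processed pseudogenes and 0.09 for 48 processed transcripts. Reads that fell outside annotated features moved with it. They made up 8.34%, 9.05% and 9.43% of reads in control and 11.3%, 10.6% and 10.6% in knockdown libraries (8.94% ± 0.555 and 10.8% ± 0.388, n = 3). The groups did not overlap, and the 2-sided exact permutation p of 0.1 is the smallest that 3 against 3 libraries allow. Reads without a unique alignment went the other way, from 68.8%, 68.0% and 67.6% in control to 65.9%, 66.6% and 64.4% in knockdown libraries, also without overlap and with the same exact permutation p of 0.1. The part of either in the positive median was not tested.

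Over all pairs, the signs of long noncoding genes and their protein-coding partners were mixed. Among 83 pairs that overlap on opposite strands, 48 had log2 fold changes of the same sign and 35 of opposite sign (Pearson r = 0.10 and Spearman rho = 0.09 across pairs, which share libraries), and 11 of the protein-coding partners (13.3%) were called. Among 69 head-to-head pairs, 35 had the same sign and 34 the opposite (r = -0.0021, rho = 0.26), with 7 partners called (10.1%). Flanking protein-coding genes gave 111 pairs of the same and 105 of opposite sign over 216 pairs, with the flanking gene called in 24 (11.1%). Over all 10437 protein-coding genes tested 9.64% were called, and no difference between these shares was tested.

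**Figure D3:**
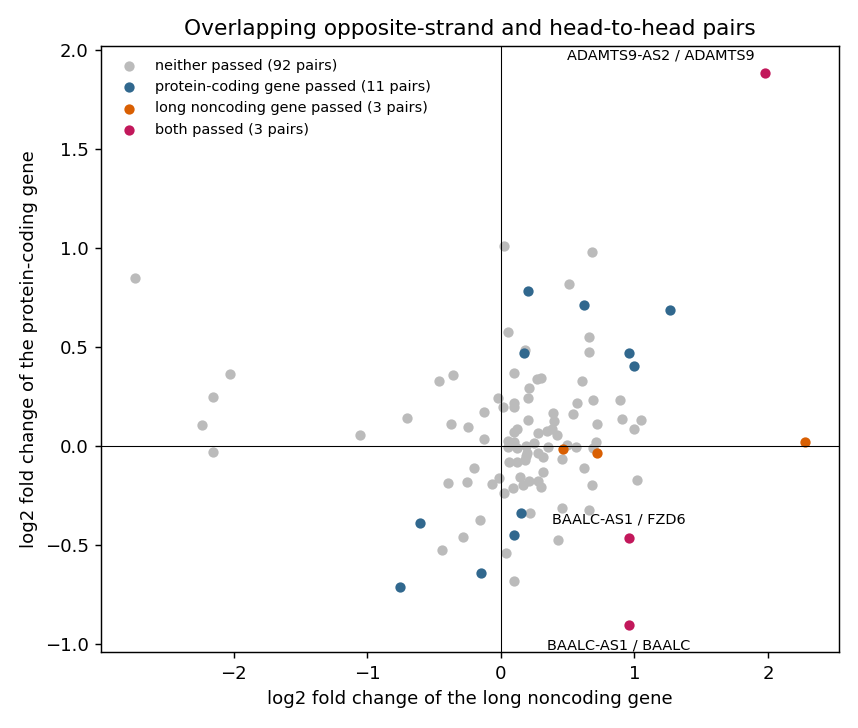
Log2 fold change of the protein-coding gene against that of its long noncoding partner for 109 pairs that overlap on opposite strands or start head-to-head; colours show which of the pair passed the edgeR test. Both genes passed in 3 pairs, ADAMTS9-AS2 with ADAMTS9 in the upper right and BAALC-AS1 with BAALC and with FZD6 in the lower right.

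In 11 of these pairs the protein-coding gene passed and the long noncoding gene did not; 9 of the 11 had the same sign and 2 the opposite sign. The examples were picked after their values were seen. All those named here share exon sequence except EIF3J with EIF3J-DT, ST3GAL1 with AC103706.1 and SLC12A2 with LINC01184. Where exon sequence is shared, how the reads were divided is uncertain and the 2 genes may not be measured independently. IGFBP5 had 206800 counts in all and AC007563.2 had 261. IGFBP5, an insulin-like growth factor binding protein gene, rose with a log2 fold change of 0.69 (edgeR adjusted p = 0.0167), and its partner AC007563.2 had 1.27 (0.0586). REV3L, a DNA polymerase zeta subunit gene, rose with 0.40 (0.0361), and TRAF3IP2-AS1 had 1.00 (0.0762). RHOBTB3 rose with 0.47 (0.0166), and AC008840.1 had 0.96 (0.0965). ST3GAL1 rose with 0.71 (0.00195), and AC103706.1 had 0.62 (0.432). Other partners moved less: TRPA1 rose with 0.78 (0.001925) beside MSC-AS1 at 0.21 (0.586). PHLDA1 rose with 0.47 (0.0164) beside AC011611.3 at 0.17 (0.635). In the other direction, SLC16A1, a lactate transporter gene, fell with -0.71 (0.00895), and SLC16A1-AS1 had -0.75 (0.328). NEXN, an actin-binding protein gene, fell with -0.39 (0.0304), and NEXN-AS1 had -0.60 (0.259). SLC12A2 fell with -0.64 (0.0200) beside LINC01184 at -0.15 (0.795). The pairs of opposite sign were ZNFX1, which fell with -0.34 (0.0402) beside ZFAS1 at 0.15 (0.293), and EIF3J, which fell with -0.45 (0.0384) beside EIF3J-DT at 0.10 (0.882).

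A set of 13 of the 172 genes had over 50% of their summed CPM in a single library, 10 of them antisense. The highest library was a control library for 7 and a knockdown library for the other 6, and each of the 6 libraries was the highest for at least 1 gene. Control replicate 2 was the highest for 4 of them. None of the 7 that were tested passed.

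VAC14-AS1, antisense to a phosphoinositide kinase scaffold gene, had 26, 2042 and 84 counts in control and 111, 23 and 353 in knockdown libraries. PSMA3-AS1, antisense to a proteasome subunit gene, had 151, 1410 and 99 in control and 109, 126 and 129 in knockdown libraries. In both genes control replicate 2 lay above every other library, with 76.0% and 70.7% of the summed CPM. AC008443.5 had 16088, 3606 and 554 counts in control and 520, 1828 and 96 in knockdown libraries (log2 -2.74, SE 1.23, edgeR adjusted p = 0.230), and control replicate 1 held 63.0% of its summed CPM, so its rank per length depends on that library. Over all 172 genes the median SD of log2 CPM within a group was 0.29, and over the 9 called genes 0.20.

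**Figure D4:**
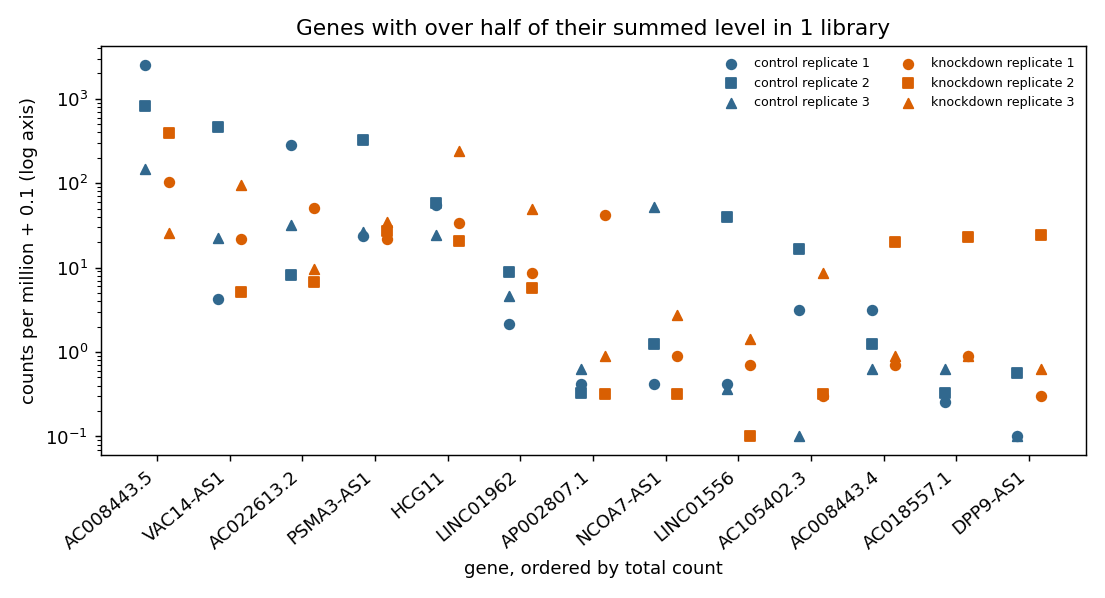
Counts per 1000000 plus 0.1 on a log axis for the 13 genes with over 50% of their summed level in 1 library, ordered by total count; blue marks control and orange knockdown, and the marker shape gives the replicate number. The library that stands apart differs from gene to gene.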

How the data were processed

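RNA of 3 control and 3 knockdown libraries, grouped by sample title, was analysed. The deposited files hold the authors' raw counts of reads for each Ensembl gene, made with CASAVA 1.7, GSNAP and HTSeq on hg19, per the submitters' processing notes. No source used here states the annotation, the HTSeq version or the strand setting. Reads without a unique alignment (64.4% to 68.8%) and other rows without a gene name did not enter the library sizes; reads in genes were 11.9% to 13.7% of the total. The authors' comparison table, named as protein-coding, was not used.

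Gene types, order and strand came from GENCODE 29 by identifier (47399 matched); it is on another build, so none of its coordinates are given. Genes were filtered with filterByExpr (minimum count 10), TMM-scaled and tested by edgeR's glmQLFit and glmQLFTest (edgeR 4.0.16, R 4.3.3), with group as the only term. The SE is the log2 fold change divided by the square root of F. CPM uses TMM-scaled library sizes. Head-to-head means starts within 2000 bases on opposite strands. Libraries of a group differed beyond counting noise (chi-square per degree of freedom 25.2 to 37.7), so none was taken for a copy. Named were genes that passed, their overlapping and nearest protein-coding neighbours, the 5 most abundant per length, and genes of 9 role lists that passed or were the most abundant of their list; other genes named were chosen after their values were seen. A gene that this rule picked is not reported here. The genes and lists were chosen with earlier results of these data known. Alternatives were other scalings, filters and thresholds, DESeq2 1.42.0, leaving out each library in turn, a replicate block and limma-voom (limma 3.58.1). The steps were tested on simulated data.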

Additional observations from a re-analysis of the deposited data

Results flagged for a closer look

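Reads outside annotated features, which belong to no gene comparison, averaged 10.8% of all reads in the knockdown libraries against 8.94% in the control libraries, and each knockdown library lay above each control library. As a share of reads inside and outside genes together they were 45.7% ± 2.54 and 39.8% ± 2.00 (SD, n = 3). Reads without a unique alignment were 68.1% ± 0.619 in control and 65.7% ± 1.15 in knockdown libraries, without overlap. The 2-sided exact permutation p was 0.1 for each of the 3 measures, the smallest possible with 3 against 3 libraries. Which loci these reads come from was not analysed here.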

How the results depend on the processing

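The edgeR count of 9 genes higher and 0 lower became 18 higher and 4 lower with no filter beyond 1 count, where all 172 genes were tested and 7 of the 13 calls gained were genes with over 50% of their summed CPM in 1 library, and 1 higher at an adjusted p under 0.01. A count sum of at least 30 gave 1 lower, and DESeq2 gave 1 lower (MIR137HG). Leaving out 1 library gave 1 to 4 higher and 0 to 1 lower, with medians of 0.20 to 0.26. These fits called 427 to 564 of all genes, against 1104 with all libraries. The median log2 fold change was 0.19 with a count sum of at least 100 and 0.27 without genes that share exon sequence with a protein-coding gene, an alternative added after seeing the data. Under DESeq2 size factors, upper-quartile scaling and total counts, 9, 10 and 8 genes were higher and the median stayed within 0.21 to 0.23. Libraries with the same replicate number did not deviate together (correlations -0.03, -0.02 and -0.17), so the numbers were not taken to pair them; no library correlated best with its own number. With a replicate block, 1 gene, CARMN, was called higher, and 416 of all genes. Of the 172 genes, 114 have under 200 counts over the 6 libraries, which limits the precision of their fold changes.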
